A study of Homo sapiens with 52 samples.

Results

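WI-38 cells 2 days after a pulse of doxorubicin (DXR), named DDR-Sen day 2, were compared with untreated WI-38 cells. The genes described are those with a mean normalized count of at least 10 over the libraries of these 2 groups, which were 14491 of the 59408 genes listed. The study sequenced mRNA of WI-38, a line of fibroblasts from human embryonic lung that stops dividing after a limited lifespan, after 3 treatments that make the cells senescent. These were DXR (DDR-Sen), the detergent SDS, which damages the plasma membrane (PMD-Sen), and KCl, which lets calcium into the cells (Ca2+-Sen). DDR-Sen cells received 250 nM DXR in the medium for 24 h and were then washed, and day 2 is counted from the wash. Untreated cells were young cells of the same line, and PMD-Sen day 2 cells were exposed to SDS for 24 h and collected on the same day after the wash. Each group had 2 libraries, described by the study as independent samples without saying whether they were separate cultures, so that p-values measure the spread between these libraries. All libraries came from 1 cell line.

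DXR is an anthracycline that slips between DNA bases and traps topoisomerase II on the DNA, which leaves double-strand breaks. The kinases ATM and ATR sense breaks and stalled forks and, through CHEK2 and CHEK1, stabilise the transcription factor p53. p53 then induces CDKN1A, the cyclin-dependent kinase inhibitor p21, which keeps the retinoblastoma family active, and the complexes that family forms with E2F and MuvB proteins silence genes of S phase and mitosis. In fibroblasts this arrest can become senescence, in which cells stop dividing, lose lamin B1 and secrete a changed set of proteins.

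The deposited tables hold no value of a single library, only the mean of the normalized counts of the 4 libraries compared. Since read counts are whole numbers, the 4 counts behind each mean were solved for from its digits. This gave 1 solution for 14273 of the 14491 genes and a choice among several for 139 genes. For the other 79, all abundant, only the level of each group is known. Tests covered the 14412 genes with counts. The labels' library numbers could not be tied to the counts, so A denotes the larger library of a pair and B the smaller. The recovered totals were 19.0 and 15.3 M reads for the untreated libraries and 27.5 and 26.7 M for DDR-Sen day 2. Between the libraries of a group the median absolute log2 difference was 0.14 in untreated cells and 0.11 on day 2. Of the 14491 genes, 301 had an untreated level under 10 and 223 a day 2 level under 10. At the edge of the choice, MORF4 had a mean of 10.002 and AC018797.3 one of 9.991.

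All 9 markers of lung fibroblasts were among the genes described, from LUM, a proteoglycan, at 3142 in untreated and 3230 in day 2 cells, to COL1A1, type I collagen, at 255096 and 216892. Markers of other cell types were low or absent. KRT14, SFTPC and CD3E, which mark basal epithelium, alveolar type II cells and T cells, were at 0 in all 4 libraries. KRT19, a keratin of simple epithelia, was well above these and was higher on day 2 (1704 and 1576) than in untreated cells (1072 and 764), with a limma log2 fold change of 0.84 ± 0.13 (SE). PTPRC, the leukocyte antigen CD45, was at 0 in both untreated libraries and at 26.9 and 10.4 on day 2, while CD3E stayed at 0. The summed level of the 5 white blood cell markers was 20.3 in untreated and 52.5 in day 2 cells, that of the 4 endothelial markers 35.1 and 53.5, and that of the 4 neuronal markers 78.6 and 93.0. The part of these markers in the results was not tested.

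Of the 14412 genes tested, 1100 rose (7.63%) and 1457 fell (10.1%) on day 2 against untreated cells, at an adjusted p under 0.05 by limma with Benjamini-Hochberg adjustment. With a log2 fold change of at least 1 as well, 161 rose (1.12%) and 440 fell (3.05%). The median log2 fold change over all genes tested was −0.00 and the median standard error 0.12. Falls of this size outnumbered rises. Genes named below were taken by a rule on size or by group membership, and others were added after their values were seen. Without day 2 library A the calls were 610 higher and 835 lower, and without library B 612 and 866.

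**Figure D1:**
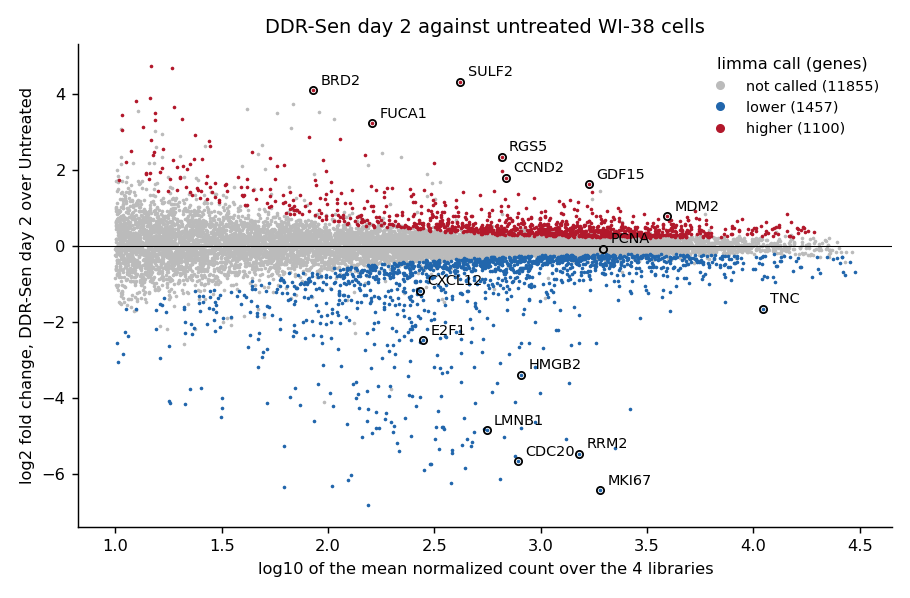
Each point is a gene of the 14412 tested, with the log10 of its mean normalized count over the 4 libraries on the x axis and its log2 fold change of DDR-Sen day 2 over untreated cells on the y axis, coloured by limma call (1100 higher, 1457 lower). MKI67 and RRM2 lie far below 0, and SULF2 and FUCA1 far above it. Among other named genes of the cell cycle, PCNA lies near 0 and CCND2 above it.

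The targets of p53 that halt the cycle or feed back on p53 were higher on day 2. CDKN1A, the cyclin-dependent kinase inhibitor p21, could not be split into libraries, and its group level was 18612 in untreated and 45701 in day 2 cells, a log2 ratio of 1.30 with no test. It was the highest ratio of the 79 genes of this kind. Of the 11 other targets of this arm, 9 rose and 0 fell, with a median log2 fold change of 0.75 against −0.00 for all genes. TP53INP1, a p53-induced nuclear protein of stress and autophagy, stood at 725 and 776 in the untreated libraries and at 1752 and 1639.8 on day 2. Both day 2 values lay above both untreated ones, a log2 fold change of 1.18 ± 0.08 (limma adjusted p = 3.93e-05). BTG2, an antiproliferative factor, rose from 641 and 499.8 to 1189 and 1089 and MDM2, the ubiquitin ligase that degrades p53, from 2944 and 2871 to 5209 and 4782. Their log2 fold changes were 0.99 ± 0.12 and 0.78 ± 0.07. SESN1, a sestrin that restrains mTORC1, and ZMAT3, a p53-induced RNA-binding protein, rose by 0.78 ± 0.11 and 0.75 ± 0.07. PLK2 and PHLDA3 did not pass the test, at −0.03 and 0.25.

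Among 14 p53 targets of the death receptor and apoptosis arm, 8 rose and 1 fell, with a median of 0.53. TNFRSF10C, a decoy receptor for the death ligand TRAIL, went from 94.6 and 102 to 306 and 256 and CYFIP2, a partner of the translation repressor FMRP, from 352 and 299 to 947 and 829. The log2 fold changes were 1.51 ± 0.18 and 1.44 ± 0.12. BBC3, the BH3-only killer PUMA, rose by 0.89 ± 0.13 and the death receptors EDA2R and FAS by 0.73 ± 0.13 and 0.54 ± 0.07. BAX, which permeabilises mitochondria, was the member that was lower, at 2375 and 2527 on day 2 against 2866 and 2860.0, a log2 fold change of −0.22 ± 0.07 (limma adjusted p = 0.0497). That call was lost when any 1 of the 4 libraries was left out, with adjusted p from 0.0671 to 0.292. TNFRSF10B, PMAIP1 and AEN did not pass the test, at log2 fold changes of 0.17, 0.29 and 0.02.

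The third group of p53 targets, 13 genes of DNA repair and metabolism, had 12 members that rose and 0 that fell, with a median of 0.77. FUCA1, a lysosomal fucosidase at chr1:23845077-23868290 of the RefSeq annotation of GRCh38.p14, went from 26.5 and 36.5 to 298 and 285, which was 9.31-fold higher. GDF15, a secreted stress cytokine at chr19:18386158-18389176, went from 871 and 795 to 2576 and 2555. The pairs did not overlap for either gene, and the log2 fold changes were 3.22 ± 0.25 and 1.62 ± 0.08 (limma adjusted p = 8.29e-05 and 6.22e-06). ACER2, a ceramidase, FDXR, a mitochondrial ferredoxin reductase, and SPATA18, a factor of mitochondrial quality control, rose by 1.74 ± 0.23, 1.19 ± 0.09 and 1.05 ± 0.09. RRM2B, the p53-induced subunit of ribonucleotide reductase, rose by 0.84 ± 0.08, the damage recognition factors XPC and DDB2 by 0.46 ± 0.08 and 0.36 ± 0.08, and the bypass polymerase gene POLH by 0.24 ± 0.07. DRAM1, at 0.08, did not pass the test. Leaving out 1 library gave 7 to 10 members higher in the arrest arm, 7 to 10 in the apoptosis arm and 9 to 12 here, and 0 lower in each.

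**Figure D2:**
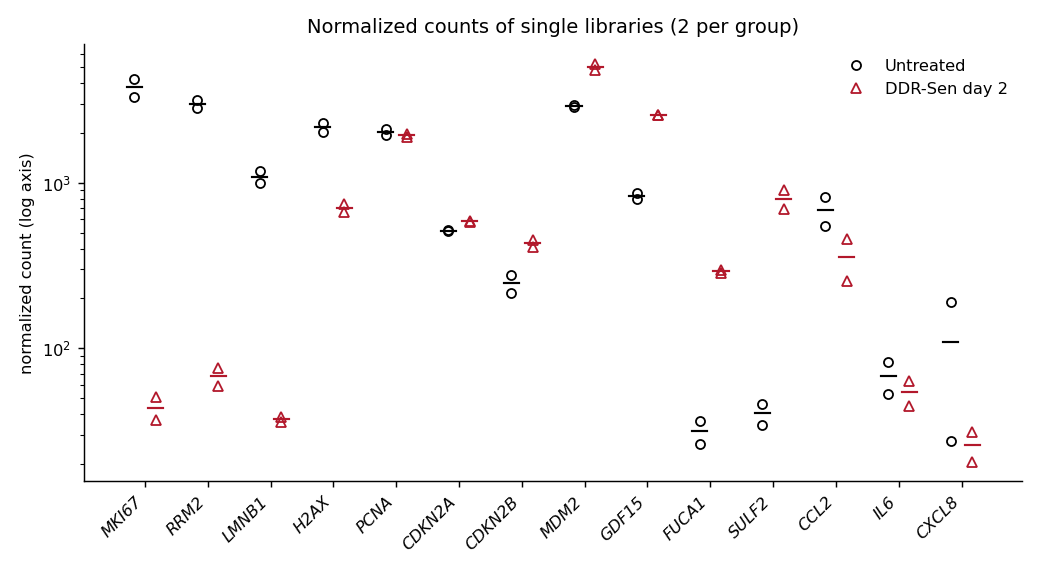
Normalized counts of 14 genes, on a log axis, in the 2 untreated libraries (black circles) and the 2 DDR-Sen day 2 libraries (red triangles), with a bar at each mean. The pairs are far apart for MKI67, RRM2, LMNB1, FUCA1 and SULF2 and overlap for PCNA, IL6 and CXCL8.

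Genes of mitosis had the lowest median of the 22 groups. All 34 tested members fell and 0 rose, with a median log2 fold change of −4.78, which is 27.5-fold lower, and the same 34 of 34 were lower without any 1 library. MKI67, the proliferation antigen Ki-67, stood at 4234 and 3302 in the untreated libraries and at 36.9 and 50.6 on day 2, a log2 fold change of −6.43 ± 0.30 (limma adjusted p = 6.22e-06). CENPA, the centromeric histone, went from 227 and 185 to 1.54 and 3.22, KIF20A, a kinesin of cytokinesis, from 1275 and 1254 to 9.98 and 32.2, and UBE2C, a ubiquitin-conjugating enzyme of the anaphase-promoting complex, from 564 and 546 to 9.21 and 8.84. No untreated library came near a day 2 library for these genes. CDK1, the mitotic kinase, and CCNB1, its cyclin, fell by 4.81 ± 0.21 and 3.18 ± 0.10 on the log2 scale. The smallest falls were those of AURKA, a centrosomal kinase (−1.46 ± 0.08), ECT2, an activator of RhoA in cytokinesis (−1.26 ± 0.08), and INCENP, a scaffold of the chromosomal passenger complex (−1.24 ± 0.12). In bulk libraries fewer dividing cells and less of an mRNA in each cell cannot be told apart.

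Genes of mitosis are known to be silenced through the CHR element, often beside CCAAT boxes bound by NF-Y, and genes of replication through E2F sites, so the stretches upstream of 8 genes that fell, chosen because they hold such letters, are shown. Each is the 110 bases before the start that RefSeq lists for the gene on GRCh38.p14, 5′ to 3′ on the strand of the gene. Capitals mark the letters searched on both strands, which for CHR were TTTGAA or TTCGAA, for the CCAAT box CCAAT, and for E2F TTTGGCGC, TTTGCCGC, TTTCGCGC or TTTCCCGC. CHR and CCAAT matches can overlap, as in MKI67. The first 4 genes are MKI67 (chr10:128126424-128126533, minus strand), CDC20, the activator of the anaphase-promoting complex (chr1:43358871-43358980, plus strand), HMMR, a hyaluronan receptor and spindle protein (chr5:163460522-163460631, plus strand), and PLK1, a mitotic kinase (chr16:23678779-23678888, plus strand), with log2 fold changes of −6.43, −5.66, −5.35 and −4.81.
MKI67: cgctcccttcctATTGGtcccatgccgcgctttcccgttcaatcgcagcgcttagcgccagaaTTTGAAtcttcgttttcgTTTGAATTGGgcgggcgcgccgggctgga
CDC20: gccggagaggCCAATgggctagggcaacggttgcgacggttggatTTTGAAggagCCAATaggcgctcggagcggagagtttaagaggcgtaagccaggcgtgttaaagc
HMMR: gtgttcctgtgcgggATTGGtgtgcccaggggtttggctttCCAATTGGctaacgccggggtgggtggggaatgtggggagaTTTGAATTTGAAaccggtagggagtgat
PLK1: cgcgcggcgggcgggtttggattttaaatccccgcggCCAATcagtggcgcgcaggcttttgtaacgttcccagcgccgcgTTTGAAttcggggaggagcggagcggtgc
The other 4 are DTL, a substrate receptor of the CUL4 ubiquitin ligase (chr1:212035638-212035747, plus strand), GINS2, a subunit of the replicative helicase (chr16:85688955-85689064, minus strand), MCM7, another (chr7:100101398-100101507, minus strand), and RFC3, of the clamp loader (chr13:33818039-33818148, plus strand), with log2 fold changes of −3.98, −3.22, −2.56 and −3.18.
DTL: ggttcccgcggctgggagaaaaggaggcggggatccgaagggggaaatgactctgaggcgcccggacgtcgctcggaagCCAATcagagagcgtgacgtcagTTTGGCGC
GINS2: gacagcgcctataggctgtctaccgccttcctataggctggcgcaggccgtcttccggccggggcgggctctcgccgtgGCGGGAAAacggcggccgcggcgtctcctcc
MCM7: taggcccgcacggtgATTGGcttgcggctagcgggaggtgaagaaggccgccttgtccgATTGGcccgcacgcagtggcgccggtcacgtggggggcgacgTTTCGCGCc
RFC3: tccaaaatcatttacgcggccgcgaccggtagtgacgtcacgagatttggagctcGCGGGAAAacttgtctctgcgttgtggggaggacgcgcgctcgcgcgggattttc
In windows of 300 bases around the start, 22 of the 29 mitosis genes matched by symbol held a CHR (75.9%), 23 a CCAAT box (79.3%) and 18 both (62.1%). Of the 27 replication genes matched, 2 held a CHR (7.41%), 17 a CCAAT box (63%) and 17 an E2F match (63%). Over all 27305 windows of the table, 16.6% held a CHR, 35.7% a CCAAT box, 6.58% both and 3.33% an E2F match. In the shorter stretches of 110 bases, 13 of the 29 mitosis genes held a CHR (44.8%) and 8 of the 27 replication genes an E2F match (29.6%). Over all stretches of that length the shares were 5.52% and 1.26%. PCNA, whose log2 fold change of −0.07 did not pass the test, was among the replication genes with an E2F match there. Among the mitosis genes CDK1, MAD2L1, AURKB, CENPE, NDC80, NUF2 and KIF2C held none of the letters there. The same held for the replication genes MCM2, GINS3, POLE2, RFC4, TK1, FEN1 and LIG1. These are matches of letters and were not tested as sites.

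Of the 32 genes of DNA replication, 31 fell and 0 rose, with a median of −2.32, which is 4.98-fold lower, and 31 were lower without any 1 library. RRM2, the S phase subunit of ribonucleotide reductase, stood at 3137 and 2822 in untreated and 59.1 and 76.4 in day 2 libraries. TK1, thymidine kinase, stood at 1842 and 1763 in untreated and at 55.3 and 96.5 in day 2 libraries. The day 2 pairs lay far below the untreated pairs, with log2 fold changes of −5.47 ± 0.17 and −4.63 ± 0.20 (limma adjusted p = 1.66e-06 and 5.43e-06). MCM10, which helps to start forks, CLSPN, a mediator of the ATR checkpoint, and CDC45, of the replicative helicase, fell, with log2 fold changes of −4.91 ± 0.40, −4.34 ± 0.35 and −4.29 ± 0.29. The replicative helicase subunits MCM2 to MCM7 fell less, from 1.67 for MCM3 to 2.56 for MCM7. PCNA, the sliding clamp and itself a p53 target, was the exception, at 2100.5 and 1949 in untreated and 1897 and 1954 in day 2 libraries. Its groups overlapped and its log2 fold change was −0.07 ± 0.07 (limma adjusted p = 0.518).

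Among 30 regulators of the cycle that could be tested, 18 fell and 2 rose, with a median of −0.40. The factors that drive S phase and mitotic genes were among the lowest. MYBL2, the B-MYB partner of MuvB, went from 612 and 574 to 13.1 and 8.84, FOXM1, a factor of late-phase genes, from 1342 and 1533 to 79.8 and 86.0, and E2F1 from 485 and 466 to 86.8 and 83.6. Their log2 fold changes were −5.73 ± 0.31, −4.10 ± 0.16 and −2.48 ± 0.14, with no overlap of the groups. Of the cyclin-dependent kinase inhibitors of the INK4 kind, CDKN2C (p18) fell by 3.41 ± 0.21, CDKN2B (p15) rose from 278 and 215 to 412 and 452 (log2 fold change 0.80 ± 0.14), and CDKN2A (p16 and ARF) stood at 515 and 511 in untreated and at 577 and 591 in day 2 libraries. For CDKN2A both day 2 values were above both untreated ones, but the log2 fold change of 0.18 ± 0.09 did not pass the test (limma adjusted p = 0.185). CCND2, a D-type cyclin, rose from 314 and 296 to 1199 and 935, a log2 fold change of 1.79 ± 0.16. CCND1, cyclin D1, could not be split into libraries and its group level was 53580.1 in untreated and 87953 in day 2 cells. With the spread shared over 22 libraries CDKN2B did not pass (limma adjusted p = 0.0764).

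Genes of homologous recombination and of the Fanconi pathway, which repair breaks and crosslinks in S and G2 phase, fell in 22 of 26 cases and rose in 0, with a median of −2.09. RAD51AP1, a factor of homologous pairing, went from 250.4 and 263 to 12.3 and 20.1 and FANCD2, the clamp at crosslinks, from 309 and 263 to 26.1 and 15.3. The log2 fold changes were −4.00 ± 0.29 and −3.81 ± 0.30, with no overlap. EXO1, a resection nuclease, FANCA, of the Fanconi core complex, BRCA2 and BRCA1 fell by 3.63 ± 0.32, 2.94 ± 0.19, 2.74 ± 0.25 and 2.17 ± 0.15 on the log2 scale. FANCE, FANCM, FANCF and PALB2 did not pass the test, at −0.46, −0.42, −0.26 and −0.05. Of 24 kinases and mediators that sense damage, 10 fell and 1 rose, with a median of −0.25. The shares over all genes tested were 10.1% that fell and 7.63% that rose. H2AX, the histone variant that is phosphorylated at breaks, went from 2285 and 2033 to 665 and 744, a log2 fold change of −1.62 ± 0.09 (limma adjusted p = 1.32e-05). The checkpoint kinases CHEK1 and CHEK2 fell by 1.00 ± 0.10 and 0.81 ± 0.17, and TOPBP1, the activator of ATR, by 0.84 ± 0.08. ATM was the member that rose, from 1908 and 2011 to 2563 and 2391 (0.34 ± 0.07), and ATR stood at 0.11 ± 0.08. Without day 2 library A the call of CHEK2 was lost (limma adjusted p = 0.0957), and 4 members of this group were then lower, against 6 without day 2 library B and 7 or 11 without untreated library B or A.

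Of 20 replication-dependent histone genes with a level that could be tested, 12 rose and 0 fell, with a median of 1.14. H1-2, a linker histone, stood at 388 and 508 in untreated and 1246 and 1010.4 in day 2 libraries, and H2BC5 at 148 and 133 in untreated and at 355 and 369 in day 2 libraries. The log2 fold changes were 1.35 ± 0.15 and 1.36 ± 0.14, and those of H4C8 and H4C9 were 1.35 ± 0.19 and 1.19 ± 0.17. Near-identical copies make the counts of single histone genes uncertain, and most of these mRNAs normally lack a poly(A) tail. Without 1 library 8 to 14 of the 20 were higher, with 8 without day 2 library A.

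Genes of the nuclear lamina and of chromatin fell in 21 of 25 cases and rose in 1, with a median of −1.06. LMNB1, lamin B1, whose loss is a mark of senescence, stood at 1171 and 991 in untreated and 36.1 and 38.6 in day 2 libraries, which was 28.7-fold lower (log2 fold change −4.85 ± 0.23, limma adjusted p = 6.22e-06). HMGB2, a DNA-bending protein, went from 1593 and 1366 to 153 and 129, and EZH2, the H3K27 methyltransferase, from 463 and 371 to 74.5 and 74.0. CHAF1B, a histone chaperone of the fork, fell by 2.57 ± 0.18 on the log2 scale and LMNB2, lamin B2, by 0.97 ± 0.07. HMGA2, a chromatin protein of embryonic cells, was the member that rose (0.39 ± 0.08). LMNA, lamin A, was among the genes that could not be split.

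**Figure D3:**
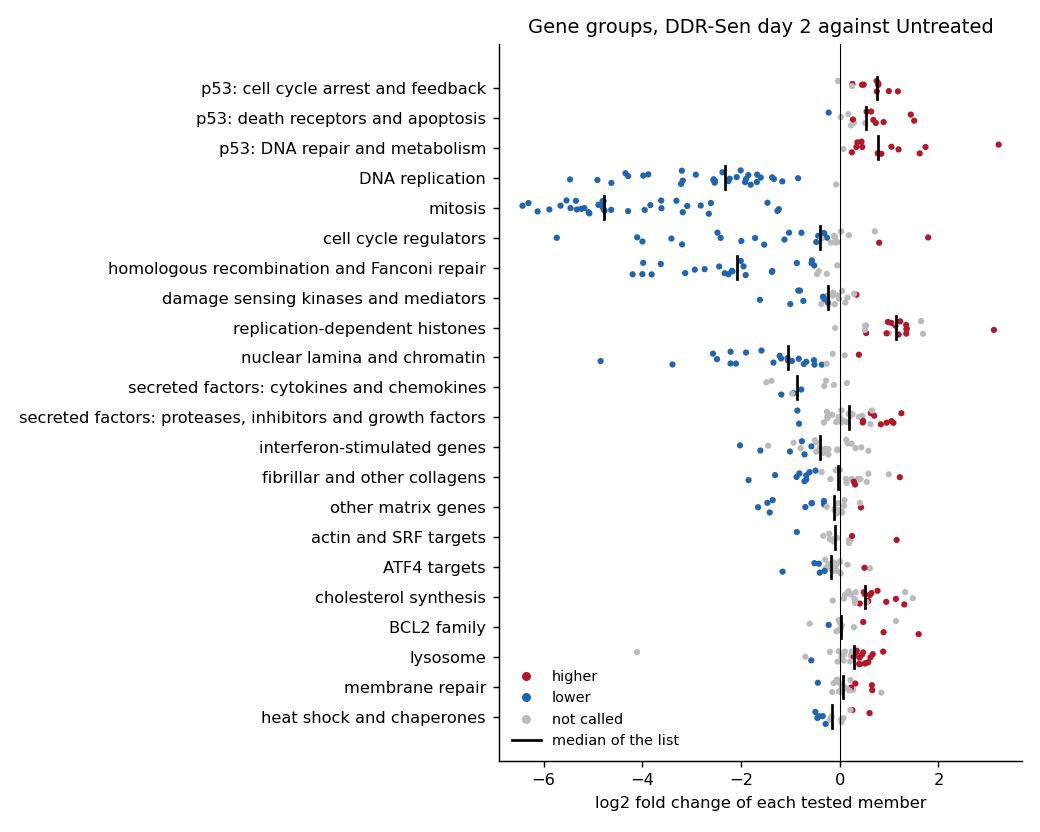
Log2 fold changes of DDR-Sen day 2 over untreated cells (x axis) for each tested member of 22 gene groups (rows), coloured by limma call, with a bar at each group's median. Mitosis, DNA replication and homologous recombination lie left of 0 (medians −4.78, −2.32 and −2.09), and the 3 groups of p53 targets right of it (0.53 to 0.77).

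The secreted factors of senescent cells were split. Of 10 cytokines and chemokines tested, 3 fell and 0 rose, with a median of −0.86. CXCL12, a chemokine of stromal cells, went from 349.7 and 406 to 172 and 158 and CSF1, a growth factor of macrophages, from 2107 and 2178 to 1331 and 1167, with log2 fold changes of −1.18 ± 0.13 and −0.78 ± 0.08. CCL2, a chemokine for monocytes, stood at 547 and 814 in untreated and at 457 and 256 in day 2 libraries (−0.94 ± 0.26, limma adjusted p = 0.0423), and its call was lost without day 2 library B (adjusted p = 0.151). IL6 stood at 53.1 and 82.8 in untreated and 63.7 and 45.01 in day 2 libraries, with overlapping groups and a log2 fold change of −0.28 ± 0.29 (limma adjusted p = 0.565). CXCL8, interleukin 8, stood at 27.7 and 189.5 in untreated and at 20.7 and 31.3 in day 2 libraries, and untreated library A lay within the day 2 range while library B lay far above it. The log2 fold change of −1.38 ± 0.83 did not pass the test. Without untreated library A it was −2.88, a value that rests on untreated library B alone and has no untreated spread. Without untreated library B the median of the group was −0.18.

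Among 32 proteases, inhibitors and growth factors, 9 rose and 2 fell, with a median of 0.19. Over all genes tested 7.63% rose and 10.1% fell, so falls were not more frequent in this group. IGFBP2, a binding protein of insulin-like growth factors, stood at 676 and 423 in untreated and at 1573 and 1060.2 in day 2 libraries, NRG1, a ligand of ERBB receptors, at 854 and 779 in untreated and at 1749.7 and 1729.8 in day 2 libraries, and SERPINB2, an inhibitor of plasminogen activators, at 103 and 109.5 in untreated and at 207 and 234 in day 2 libraries. The log2 fold changes were 1.25 ± 0.24, 1.09 ± 0.08 and 1.05 ± 0.16, with no overlap. IGFBP7 and the ERBB ligand AREG rose by 0.83 ± 0.09 and 0.95 ± 0.24. The members that fell were HGF, the hepatocyte growth factor, from 6067 and 5282 to 3241 and 3006 (−0.86 ± 0.08), and PLAU, urokinase (−0.83 ± 0.09). The collagenase MMP1 stood at 3041 and 5111 in untreated and at 4560.3 and 4507 in day 2 libraries and the stromelysin MMP3 at 523 and 1066 in untreated and at 982 and 1018 in day 2 libraries. For both genes the day 2 pair lay between the untreated libraries, with log2 fold changes of 0.20 ± 0.19 and 0.46 ± 0.24 that did not pass the test. Without untreated library A the log2 fold changes were −0.17 and −0.09, and without library B 0.58 and 0.94. Each of these values rests on the other untreated library alone and has no untreated spread. The median of the group was −0.02 without library A and 0.49 without library B. With the spread shared over 22 libraries SERPINB2 did not pass (limma adjusted p = 0.110). IGFBP3 stood at −0.25 ± 0.13, also without passing. TIMP1, an inhibitor of metalloproteinases, could not be split, and the log2 ratio of its group levels was 0.80.

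Interferon-stimulated genes fell in 6 of 25 cases and rose in 0, with a median of −0.41. For comparison, 10.1% of all genes tested fell and 7.63% rose. OAS3, a sensor of double-stranded RNA, stood at 339 and 192 in untreated and 76.0 and 53.9 in day 2 libraries (−2.02 ± 0.32, limma adjusted p = 0.00365), and IRF1, a transcription factor of the pathway, at 552 and 535 in untreated and at 359 and 305 in day 2 libraries (−0.71 ± 0.11). IFI44 and HERC6 fell by 1.61 ± 0.33 and 1.01 ± 0.21. ISG15, a ubiquitin-like modifier, stood at 0.13 and did not pass the test. IFIT3 and PARP9 were called lower (−0.77 ± 0.20 and −0.57 ± 0.14), and both calls were lost without day 2 library B (limma adjusted p = 0.143 and 0.122). Only 2 members were lower without that library, and 11 without untreated library B, while 2 were higher without untreated library A. The median was −0.09 without day 2 library B and −0.57 without untreated library B.

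Matrix genes that could be tested fell more often than they rose. Of 24 collagen genes tested, 9 fell and 3 rose, with a median of −0.04. COL15A1, a basement membrane collagen, went from 493 and 338 to 127 and 104, COL5A3, a fibrillar one, from 267 and 201 to 107 and 82.8, and COL3A1, of type III collagen, from 28445 and 22736 to 16277 and 14736. Their log2 fold changes were −1.85 ± 0.21, −1.31 ± 0.20 and −0.71 ± 0.11. COL4A6, a chain of type IV collagen, rose from 395 and 423 to 979 and 917 (1.22 ± 0.09), while COL4A1, of the same type, fell by 0.82 ± 0.08. COL14A1 was called lower (−0.88 ± 0.17), but not without day 2 library B (limma adjusted p = 0.0666). Without day 2 library A 1 collagen was higher. COL6A3 and 4 other collagens could not be split, and its group level went from 101228 to 47648, the lowest log2 ratio of the 79 genes of this kind, at −1.09. The log2 ratios of the others were −0.46 for COL6A1, −0.41 for COL6A2, −0.23 for COL1A1 and 0.09 for COL1A2, with no test.

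Among 21 other matrix genes tested, 9 fell and 1 rose, with a median of −0.11. Another 5 could not be split and were not tested. Their log2 ratios were 0.33 for FN1, fibronectin, 0.12 for SPARC, −0.25 for THBS1, −0.04 for DCN and −0.01 for CD44. TNC, tenascin C, a glycoprotein of wounds, stood at 19810.2 and 14040.5 in untreated and 5944 and 4710.5 in day 2 libraries, and FBN2, a microfibril protein of the embryo, at 11385 and 10156 in untreated and at 4179.5 and 3628 in day 2 libraries. Both fell beyond the spread of the libraries, by 1.66 ± 0.16 and 1.47 ± 0.09 on the log2 scale. HAS2, a hyaluronan synthase, and ELN, elastin, fell by 1.42 ± 0.22 and 1.36 ± 0.26, and VCAN, the proteoglycan versican, rose by 0.43 ± 0.07. Of 12 actin genes and targets of SRF, the factor that couples actin to transcription, 2 rose and 1 fell. Over all genes tested 7.63% rose and 10.1% fell. The members called were ANKRD1, a muscle ankyrin-repeat protein (1.15 ± 0.23), FHL2 (0.25 ± 0.06) and ACTG2, smooth muscle gamma actin (−0.87 ± 0.07). Another 9 members, among them ACTB, ACTG1, TAGLN and MYL9, could not be split. Without untreated library A 3 other matrix genes were higher and 3 actin genes or SRF targets lower, and without day 2 library B 6 of the other matrix genes were lower. The call of FHL2 was lost without day 2 library A or B (limma adjusted p = 0.103 and 0.124). With the spread shared over 22 libraries neither ANKRD1 nor FHL2 passed (limma adjusted p = 0.123 and 0.0595), which left 0 of the 12 genes higher.

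Genes of cholesterol synthesis, which SREBF2 controls, rose in 11 of 23 cases and fell in 0, with a median of 0.51. TM7SF2, an enzyme of the late pathway, went from 190.4 and 98.3 to 378 and 323 and MSMO1, another, from 1147 and 741 to 1931 and 2191. The log2 fold changes were 1.31 ± 0.24 and 1.14 ± 0.16. HMGCS1, which commits acetyl-CoA to the pathway, and SREBF2 rose by 0.76 ± 0.12 and 0.61 ± 0.11. Without untreated library A 17 members were higher, and the other omissions gave 9 to 11. Without untreated library B 2 members were lower and the median was 0.32.

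Lysosomal genes rose in 15 of 28 cases and fell in 1, with a median of 0.29. The hydrolases CTSF, GAA and TPP1 rose by 0.88 ± 0.11, 0.67 ± 0.10 and 0.62 ± 0.12. GLB1, the β-galactosidase whose activity is stained in senescent cells, stood at 1935 and 1813 in untreated and 2431 and 2327 in day 2 libraries (0.34 ± 0.07, limma adjusted p = 0.0118). Its rise was small but the pairs did not overlap. PPT1, a palmitoyl-protein thioesterase, fell by 0.58 ± 0.08. Another member had the lowest log2 fold change of the group, −4.11, but did not pass the test.

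The calls in 4 further groups went in both directions, and 17.7% of all genes tested were called. Targets of ATF4, the factor of the integrated stress response, fell in 5 of 21 cases and rose in 1 (median −0.17), among them PHGDH, of serine synthesis, which fell by 1.16 ± 0.17, and 2 were lower without day 2 library A or B and 9 without untreated library B. In the BCL2 family 3 of 13 rose, among them BBC3, and BAX fell (median 0.02). BMF, a BH3-only protein, went from 38.1 and 50.5 to 134 and 132 (1.60 ± 0.23), and the survival gene BCL2L1 rose by 0.47 ± 0.07. Of 22 genes of membrane repair, 4 rose and 1 fell (median 0.06), among them SMPD1, acid sphingomyelinase (0.65 ± 0.07), ANXA4, an annexin (0.66 ± 0.09), and CAV1, caveolin 1 (−0.44 ± 0.08). Of 13 heat shock genes and chaperones, 5 fell and 2 rose (median −0.17), with HSPD1, the mitochondrial chaperonin, at −0.50 ± 0.07 and DNAJB9, of the endoplasmic reticulum, at 0.60 ± 0.10. Without day 2 library A 1 chaperone gene was lower and 2 membrane repair genes were higher, and without day 2 library B 3 and 2.

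Outside the groups, the largest rises among calls at a level of 100 or more included SULF2, a secreted sulfatase that trims heparan sulfate, at chr20:47657406-47786627. It stood at 34.6 and 46.3 in untreated and 906 and 695 in day 2 libraries, 19.8-fold higher (log2 fold change 4.31 ± 0.36, limma adjusted p = 0.000115). RGS5, a regulator of G protein signaling, went from 210.0 and 223 to 1063 and 1129, TSPAN11, a tetraspanin, from 109.6 and 121 to 521 and 512, and APLP1, a relative of the amyloid precursor protein, from 270.1 and 264 to 1043 and 1052. In all 3 the pairs lay far apart, with log2 fold changes of 2.34 ± 0.11, 2.17 ± 0.14 and 1.97 ± 0.10. VWCE rose by 2.38 ± 0.23, and PLPP4, a lipid phosphatase, by 1.67 ± 0.38. MICA, a stress ligand of the receptor NKG2D, stood at 17.3 and 40.7 in untreated and at 275 and 122 in day 2 libraries (2.81 ± 0.70). BRD2, a bromodomain protein whose mean lies below 100, was added after its values were seen and stood at 8.08 and 9.83 in untreated and at 159.7 and 163 in day 2 libraries (4.09 ± 0.36). Both lie in the major histocompatibility complex, where the genome build also holds alternate haplotypes, and both varied widely between libraries of other groups. BRD2 stood at 151 and 9.10 on day 3 of DDR-Sen and at 10.1 and 322 on day 16, on the scale of the 22 libraries. The call of MICA was lost with the spread shared over 22 libraries (limma adjusted p = 0.301).

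The 10 largest falls were of genes of cell division. NEK2, a centrosomal kinase, stood at 302 and 313 in untreated and 2.30 and 2.41 in day 2 libraries, which were 3 reads each (log2 fold change −6.81 ± 0.46, limma adjusted p = 3.53e-05). Besides MKI67, CENPA, KIF20A and UBE2C, they were PBK, a mitotic kinase (−6.23 ± 0.43), CENPM, of the kinetochore (−6.16 ± 0.45), TROAP, a spindle protein (−6.03 ± 0.42), DEPDC1 (−5.83 ± 0.33) and PIMREG (−5.75 ± 0.30).

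The position of day 2 in the time course was read from 22 libraries, which hold untreated cells, 8 days of DDR-Sen, and day 2 of PMD-Sen and of Ca2+-Sen. Levels of single genes are on the scale of these libraries. Group medians are of ratios of group levels within each day's comparison with untreated cells, and include genes that could not be split, such as CDKN1A. The medians of the 3 groups of p53 targets, each as a log2 ratio to the same untreated libraries, were 1.25, 1.10 and 1.58 on day 0, 0.75, 0.53 and 0.76 on day 2, and 0.45, 0.29 and 0.45 on day 16. The mitosis median was −4.43 on day 0, −5.38 on day 1, −4.81 on day 2, −3.36 on day 3 and −4.27 on day 16. FUCA1 stood at 639 and 833 on day 0, 436 and 420.2 on day 2 and 235 and 286 on day 16, against 38.9 and 53.7 in untreated libraries. MKI67 stood at 94.6 and 105 on day 0, 20.4 and 30.8 on day 1, 54.0 and 74.6 on day 2 and 286 and 352 on day 3, against 6203 and 4858. Its lowest pair was that of day 1. CCND2 stood at 1757 and 1376 on day 2 and 8968 and 9996 on day 16, against 459.8 and 436. CDKN2A stood at 845 and 869.9 on day 2 and 1201 and 1366 on day 16, against 754 and 752. These levels are a description, since all days share the untreated libraries.

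**Figure D4:**
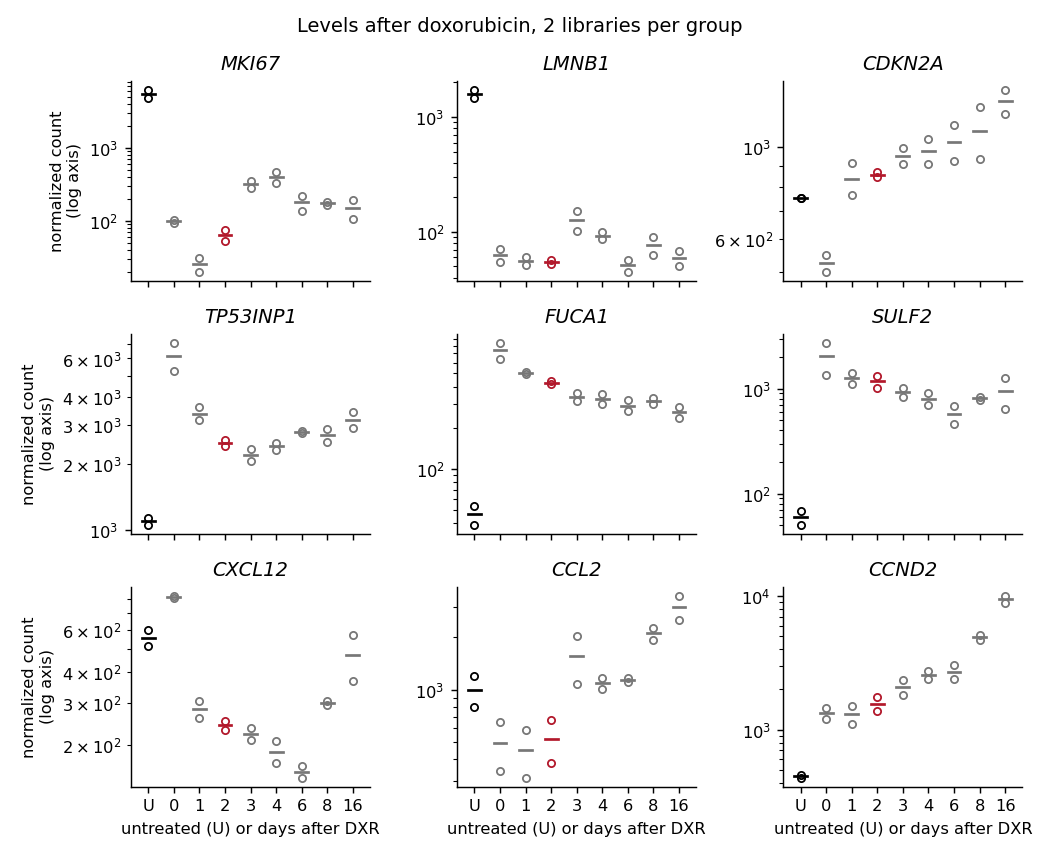
Normalized counts of 9 genes on a log axis in untreated cells (U) and on 8 days after DXR, with 2 libraries per group as circles, a bar at their mean, and day 2 in red. FUCA1, SULF2 and TP53INP1 are above untreated cells on each day, MKI67 and LMNB1 below them, and CCND2 is highest on day 16.

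Against DDR-Sen day 1, in a contrast of the fit on 22 libraries, 368 of the 13014 genes with counts for both days were called (2.83%), 221 higher on day 2 (1.7%) and 147 lower (1.13%). The largest rises included USP53, a member of the ubiquitin protease family, from 1659 and 1283 on day 1 to 5234 and 4464 on day 2 (log2 fold change 1.71 ± 0.16, limma adjusted p = 6.15e-05). They also included SYNPO2, an actin-binding protein, from 371 and 312 to 1217 and 973 (1.65 ± 0.27), and ANLN, the anillin of the cleavage furrow, from 136 and 166 to 369 and 382 (1.35 ± 0.23), and PRUNE2 (1.32 ± 0.20). On the scale of the 4 libraries, USP53 stood at 3305 and 2488 in untreated and 3573 and 3032 in day 2 libraries. SYNPO2 stood at 879 and 880 in untreated and 831 and 661 in day 2 libraries, and PRUNE2 at 120 and 102 and at 116 and 125. Day 2 thus lay near the untreated level for these 3 genes. ANLN was far below it, at 252 and 260 on day 2 against 4934 and 5073. Among the genes that fell were BMF, from 435 and 563 to 196 and 194 (−1.31 ± 0.25), AKR1C1, an aldo-keto reductase (−1.26 ± 0.25), TK1 (−1.10 ± 0.27) and OLFM2 (−1.09 ± 0.19). Of 14832 genes at a mean of at least 10 on day 1 and in untreated cells, 2589 could not be split, so the groups are smaller here. In the groups, 3 of 31 mitosis genes were higher on day 2 (median 0.55) and 1 of 10, 0 of 10 and 2 of 8 p53 targets of the 3 arms lower (medians −0.18, −0.07 and −0.11). The counts rest on both libraries, since 51 and 41 genes were called without day 2 library A or B, and 72 and 82 without day 1 library A or B. TCEA1P2 and CBWD3, also within the rule (1.83 and −1.42), are a pseudogene and a member of a near-identical family, and AKR1C1 has close copies, so that their counts are uncertain. Of these 10 genes all but USP53 lost their call when 1 library was left out, and TK1 lost it without any 1 of the 4.

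Against DDR-Sen day 3 few genes differed. Of 15359 tested, 77 were called (0.501%), 35 higher on day 2 (0.228%) and 42 lower (0.273%). Some cell cycle genes were lower on day 2 than on day 3. MKI67 stood at 286 and 352 on day 3 and 54.0 and 74.6 on day 2, RRM2 at 401 and 538 on day 3 and at 86.6 and 112 on day 2, and TOP2A, the topoisomerase that DXR traps, at 520.2 and 614 on day 3 and at 124 and 206 on day 2. The pairs did not overlap, and the log2 fold changes were −2.26 ± 0.44, −2.17 ± 0.37 and −1.79 ± 0.26 (limma adjusted p = 0.0379, 0.0300 and 0.0171). Of the 34 mitosis genes, 6 were lower and 0 higher, with a median of −1.26, against a median of 0.00 over all genes tested. The genes that were higher included AMIGO2, an adhesion protein, at 519 and 461 on day 3 and 1197 and 1509 on day 2 (1.43 ± 0.27), and DLL4, a Notch ligand (1.11 ± 0.22). RIMS1, of synaptic release, and PCGF2, a Polycomb protein, were higher by 1.07 ± 0.17 and 0.77 ± 0.13. Day 3 library B held 1149 normalized counts of CXCL8 and 293 of IL6, against 25.2 and 70.9 in library A. The number of calls fell to 1 without day 2 library A, 3 without day 2 library B and 8 without day 3 library B, and rose to 167 without day 3 library A, and these calls held 0, 0, 7 and 32 of the 77 genes.

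Against PMD-Sen day 2, 4341 of 15278 genes were called (28.4%), 1649 higher in DDR-Sen (10.8%) and 2692 lower (17.6%). Of the calls 37.99% were higher, or 52.2% when libraries were scaled by their totals. Mitosis genes were lower in all 34 cases, with a median of −4.38, and replication genes in 31 of 32, with a median of −1.79. MKI67 stood at 3369.7 and 2596 in PMD-Sen and 54.0 and 74.6 in DDR-Sen, and LMNB1 at 567 and 579 in PMD-Sen and at 52.9 and 56.8 in DDR-Sen. The groups lay far apart, with log2 differences of −5.54 ± 0.41 and −3.37 ± 0.27 (limma adjusted p = 5.03e-08 and 1.23e-07). Genes of homologous recombination were lower in 21 of 26 cases (median −1.85). The p53 targets of the 3 arms were higher in 6 of 11, 6 of 14 and 10 of 13 cases (medians 0.34, 0.14 and 0.49), with 0, 1 and 0 lower. FUCA1 stood at 73.7 and 70.4 in PMD-Sen and at 436 and 420.2 in DDR-Sen, a log2 difference of 2.56 ± 0.21.

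Matrix and stress genes also separated the 2 treatments. Collagens were higher in DDR-Sen in 18 of 25 cases and lower in 1, with a median of 0.62 against −0.02 over all genes, and other matrix genes higher in 12 of 22 cases and lower in 3, with a median of 0.33. COL3A1 stood at 13325 and 16524 in PMD-Sen and 23842 and 21697 in DDR-Sen (0.62 ± 0.13), while TNC was lower in DDR-Sen, at 18946 and 17929.7 in PMD-Sen and at 8707 and 6936 in DDR-Sen (−1.25 ± 0.15). Of 5 fibroblast markers tested 4 were higher in DDR-Sen, among them LUM (1.39 ± 0.16). ATF4 targets were higher in 13 of 22 cases and lower in 0, with a median of 0.58. SULF2 (4.67 ± 0.64) and VWCE (2.61 ± 0.28) were among the largest differences, and so was IGFBP2 (2.57 ± 0.36). The rule also named BRD2, YTHDC1 and NAPRT (4.32 ± 1.46, 3.34 ± 1.15 and 2.88 ± 1.04), whose calls were lost without any 1 of the 4 libraries. PTPRC stood at 0 and 0.792 in PMD-Sen and 39.4 and 15.4 in DDR-Sen, under the mean level that the rule requires. Its level rested almost only on the DDR-Sen libraries, so the size of its difference is not interpreted. Against untreated cells its mean was under the minimum and it was not tested. Without DDR-Sen library A 2019 genes were called, and without PMD-Sen library A 2291, against 3298 and 3188 without the B libraries.

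**Figure D5:**
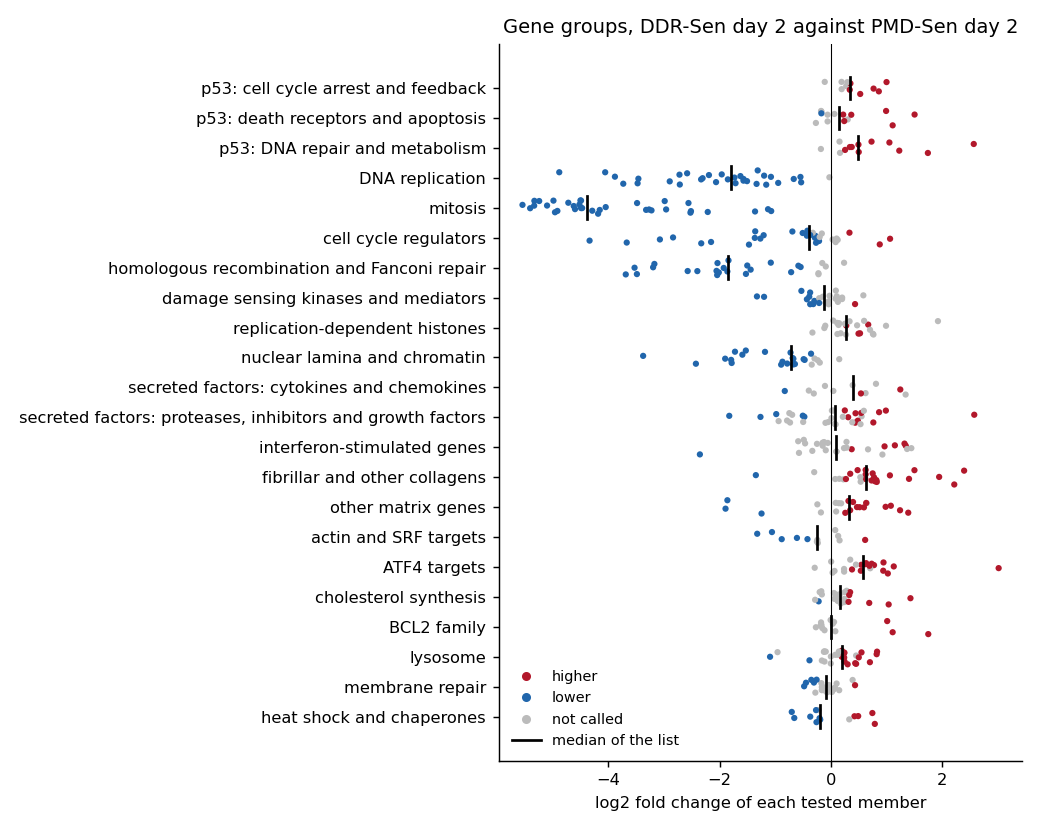
Log2 differences of DDR-Sen day 2 from PMD-Sen day 2 (x axis) for each tested member of 22 gene groups (rows), coloured by limma call, with a bar at each group's median. Mitosis (median −4.38) and DNA replication (−1.79) lie on the side of lower values in DDR-Sen, and collagens (0.62) and ATF4 targets (0.58) on the other.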

How the data were processed

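Poly(A) RNA of WI-38 cells was sequenced by the authors. The submitters' processing notes name Trim Galore, HISAT2, HTSeq, featureCounts and DESeq2 and the builds GRCh38 and hg38. Versions and the counting of strand are not given in the sources used here. Of the 52 deposited files, 18 tables were used. Each deposited table gives, per gene, the mean normalized count over the libraries of 2 groups (a signal: read counts divided by size factors) and the authors' own fold changes, standard errors, test statistics and p-values, which were not used. No other column of per-sample values is present (0). The files of a pair of samples are copies of 1 table.

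Whole counts were solved from the digits of the means, with the untreated counts shared by 10 tables printed to 15 digits. Of 261 genes solved in each of these tables alone, 261 gave the same untreated counts in all. Size factors computed from the solved counts by the median of ratios matched those in the tables up to a common factor, with a spread of 0.0110% in their ratios. Where several solutions remained, 1 was chosen only if the replicate log2 ratio lay within 0.5 and no other lay within 1.5. Levels are counts divided by size factors. Since the tests run on solved counts and not on counts as deposited, limma's voom (3.58.1, R 4.3.3), with 0.5 added to counts, stood in for a count model, on the 4 libraries for untreated cells and on 22 libraries (11 groups) for the other contrasts, with Benjamini-Hochberg adjustment over all genes tested and a call at an adjusted p under 0.05. Scripts used Python 3.11.15, NumPy 2.4.6, pandas 2.3.3, SymPy 1.14.0 and matplotlib 3.10.9, and the solving and the fit were tested on simulated data.

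The rule for named genes took the 10 largest rises and falls among calls at a mean level of 100 or more whose libraries did not overlap, the 4 called members of each group with the largest change at a mean of at least 100, 16 genes by symbol, and 5 rises and falls for each other contrast. Some genes within the rule are not reported here. The genes and the 27 lists (5 of them cell type markers) were chosen with earlier results of these data known. Alternatives were scaling by library totals, a minimum mean of 100 or 1, limma trend on log2(count + 2), the other fit (22 or 4 libraries), a log2 fold change of at least 1, genes with 1 solution only, and each library left out. A fit with a library left out measures no spread in that library's group, so its calls rest on the spread of the other groups.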

Additional observations from a re-analysis of the deposited data

Results flagged for a closer look

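For 7 of the 16 genes named by symbol in the rule for named genes the effect of DXR on day 2 differed from that of SDS on day 2, by the limma contrast of DDR-Sen day 2 with PMD-Sen day 2. The values are log2 differences, DDR-Sen minus PMD-Sen, with 2 libraries in each group, and in each gene both DDR-Sen libraries lay on one side of both PMD-Sen libraries. CDKN2B was higher in DDR-Sen by 1.06 ± 0.25 (adjusted p = 0.00423), MDM2 by 0.53 ± 0.08 (adjusted p = 0.000223) and GDF15 by 1.74 ± 0.16 (adjusted p = 1.01e-06). LMNB1 differed by −3.37 ± 0.27 (adjusted p = 1.23e-07), MKI67 by −5.54 ± 0.41 (adjusted p = 5.03e-08) and H2AX by −1.33 ± 0.09 (adjusted p = 3.31e-08). MMP1, a collagenase, differed by −1.83 ± 0.32 (adjusted p = 0.000535), with 25294 and 21993 normalized counts in PMD-Sen and 6680.0 and 6636 in DDR-Sen.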

How the results depend on the processing

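No paired analysis was possible because the solved counts cannot be tied to the numbered samples. Each fit rests on 2 libraries per group, and paralogs, pseudogenes and genes of the major histocompatibility complex have uncertain counts. Against untreated cells 79 abundant genes could not be tested. The counts of DDR-Sen day 1 could not be split for 2589 of 14832 genes at a mean of at least 10, and 6 had no solution. For DDR-Sen day 3 this held for 181 of 14691 genes, and 1 had no solution. Against untreated cells, leaving out 1 library gave 610 to 1299 genes higher and 835 to 1718 lower, and a log2 fold change of at least 1 gave 161 and 440, fewer by construction. The higher share of calls was 43.0%, and 49.7% with library totals. Against day 1, leaving out 1 library gave 41 to 82 calls and the fold rule 32. Against day 3 it gave 1 to 167, the fold rule 26, limma trend 173 and the fit of 4 libraries 19. Against PMD-Sen it gave 2019 to 3298 and the fold rule 745. The cause of these shifts was not tested beyond the smaller number of libraries or the fold rule. The other alternatives kept each count within 1.5 times.

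The direction changed for 3 of 107 genes named against untreated cells, none of them called, and each with 1 untreated library left out. With 1 library left out the log2 fold change of IL6 ran from −0.62 to 0.018, that of MMP1 from −0.17 to 0.58 and that of MMP3 from −0.090 to 0.94. The sign turned without untreated library A for MMP1 and MMP3 and without untreated library B for IL6. The cause was not tested.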
